A study of Mus musculus with 17 samples.

Results

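The genes described here are 10 nuclear genes whose products cut, stabilize or destroy the RNA made from mitochondrial DNA (mtDNA). They were taken by gene name from a table of 56748 genes and comprised 3 genes of tRNA-end processing (*Elac2*, *Trmt10c* and *Hsd17b10*), 6 genes of the FASTK family (*Fastk*, *Fastkd1*, *Fastkd2*, *Fastkd3*, *Fastkd5* and *Tbrg4*) and the degradosome helicase gene *Supv3l1*. All 10 passed the filter on low counts and were among the 16195 genes tested.

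RNA was sequenced from the hearts of 17 mice aged 12 to 16 months, 9 with heart-specific mtDNA mutagenesis (hMut) and 8 controls (Ctrl), with 1 library per heart. The hMut mice were homozygous for *Polg* iMut and carried +/Ckmm-cre. In the iMut allele, floxed wild-type *Polg* cDNA shields a mutant exon that encodes the proofreading-deficient polymerase POLG D257A. The muscle creatine kinase promoter, active in heart and skeletal muscle cells, drives the Cre recombinase that removes the shield. By this design the mutant enzyme is made in those cells, and the other cell types of the heart keep the wild-type cDNA. The cell types that made it were not measured here. The alleles that the Ctrl mice carried are not given in the sources used here beyond the word control, and an animal's exact age was not used. Each library came from heart tissue with all of its cell types, so fewer cells of a type and less RNA per cell cannot be told apart in these values.

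Both strands of mtDNA are transcribed as long precursors in which most mRNAs and rRNAs are separated by tRNAs. RNase P, made of TRMT10C, HSD17B10 and the nuclease PRORP, cuts the 5′ ends of these tRNAs, and ELAC2, the mitochondrial RNase Z, cuts their 3′ ends, which frees the RNAs in between. Proteins of the FASTK family bind particular mitochondrial RNAs and act on their stability or on the few junctions that hold no tRNA, and SUPV3L1 unwinds RNA for the exonuclease PNPT1 in the complex that degrades it.

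The junctions on which these proteins act are shown by 4 stretches of the GRCm39 mtDNA, plus strand, each with the 15 bases before the downstream gene in lower case and the first 15 bases of that gene in capitals. As annotated, *mt-Nd2* and *mt-Tw* share 2 bases and *mt-Atp6* and *mt-Co3* share 1, which are in capitals here, and 5 bases lie between *mt-Te* and *mt-Cytb*. The first is a tRNA 3′ end of the kind ELAC2 cuts, the second a tRNA 5′ end of the kind RNase P cuts, the third a junction between mRNAs with no tRNA, and the fourth a junction where the tRNA gene lies on the opposite strand.
mt-Tl1 to mt-Nd1, chrM:2736-2765: atcctctccctaataGTGTTCTTTATTAAT
mt-Nd2 to mt-Tw, chrM:4935-4964: cccaactaattacctAGAAGTTTAGGATAT
mt-Atp6 to mt-Co3, chrM:8592-8621: acatgataatacataATGACCCACCAAACT
antisense of mt-Te to mt-Cytb, chrM:14130-14159: ctacagaaacacctaATGACAAACATACGA
The counts are per gene, so cut and uncut transcripts across these junctions were not separated.

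Library totals were 34425783 to 46486964 counts for Ctrl and 32915159 to 40175122 for hMut, and mtDNA-encoded genes took 23.5% to 30.9% of them in Ctrl and 15.9% to 23.0% in hMut. *Polg* itself, whose counts do not separate the mutant from the wild-type sequence, rose by 0.74 on the log2 scale (SE 0.10, adjusted p = 0.000448), and 8 of 9 hMut hearts lay above all Ctrl hearts. The labels give no sex, and counts of sex-linked genes assigned 3 Ctrl and 2 hMut hearts to females. The defining markers of cardiomyocytes were all detected, and none of the 16 passed the test (adjusted p from 0.0601 upward). Still, 15 of the 16 had a negative log2 fold change (hMut minus Ctrl), with a median of -0.17 over the list. At an unadjusted p under 0.05 in edgeR's test, 10 of them passed, against 25.8% of all tested genes. The summed level of the 16 markers was 65752 to 79462 per 1000000 counts in Ctrl and 49495 to 77663 in hMut, with 5 of 9 hMut hearts below all Ctrl hearts. In hMut replicates 6 and 9 it was 53357 and 49495, and the 8 myeloid markers, of which none passed the test, summed to 1121 and 569 there against 207 to 315 in Ctrl.

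Levels are given as CPM, counts per 1000000 of the TMM-normalized library, and differences as log2 fold changes, hMut minus Ctrl, from the quasi-likelihood test of edgeR with p-values adjusted by the Benjamini-Hochberg method over all tested genes. At an adjusted p under 0.05, 0 of the 10 processing and decay genes passed, where 4.62% of all tested genes passed (3.48% higher and 1.14% lower in hMut). At an unadjusted p under 0.05, 3 of the 10 passed (*Elac2*, *Fastkd1* and *Fastk*), against 25.8% of all tested genes. The Ctrl and hMut ranges overlapped for all 10 genes, where 0.605% of all tested genes had groups that did not overlap. DESeq2 called 0 of the 10 at the adjusted threshold, where it called 9.33% of all genes it tested, and limma-voom with sample weights called 1 (*Fastkd1*), where it called 12.8%.

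The 10 log2 fold changes lay between -0.19 (*Fastkd1*) and 0.13 (*Elac2*), with a median of -0.08 against 0.0023 over all tested genes. Of them 7 were negative and 3 positive, although scaling on cardiomyocyte markers, which raised the median of all tested genes by 0.18, turned 6 of the 7 positive. Relative to that shift the 7 stayed negative, between -0.20 (*Fastkd1*) and -0.07 (*Tbrg4*). A factor per library moves all genes nearly alike, so values relative to the shift are no separate check of these signs. With TMM, the 95% confidence intervals of the 10 genes lay within -0.33 and 0.23, that is between 0.796-fold and 1.17-fold of the Ctrl level. The standard errors were 0.043 to 0.083, below the median of 0.096 over all tested genes. Of all tested genes, 5887 (36.4%) had a log2 fold change larger in size than that of *Fastkd1*. Of the 10 intervals, 3 excluded 0 before adjustment (*Elac2*, *Fastkd1* and *Fastk*).

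**Figure D1:**
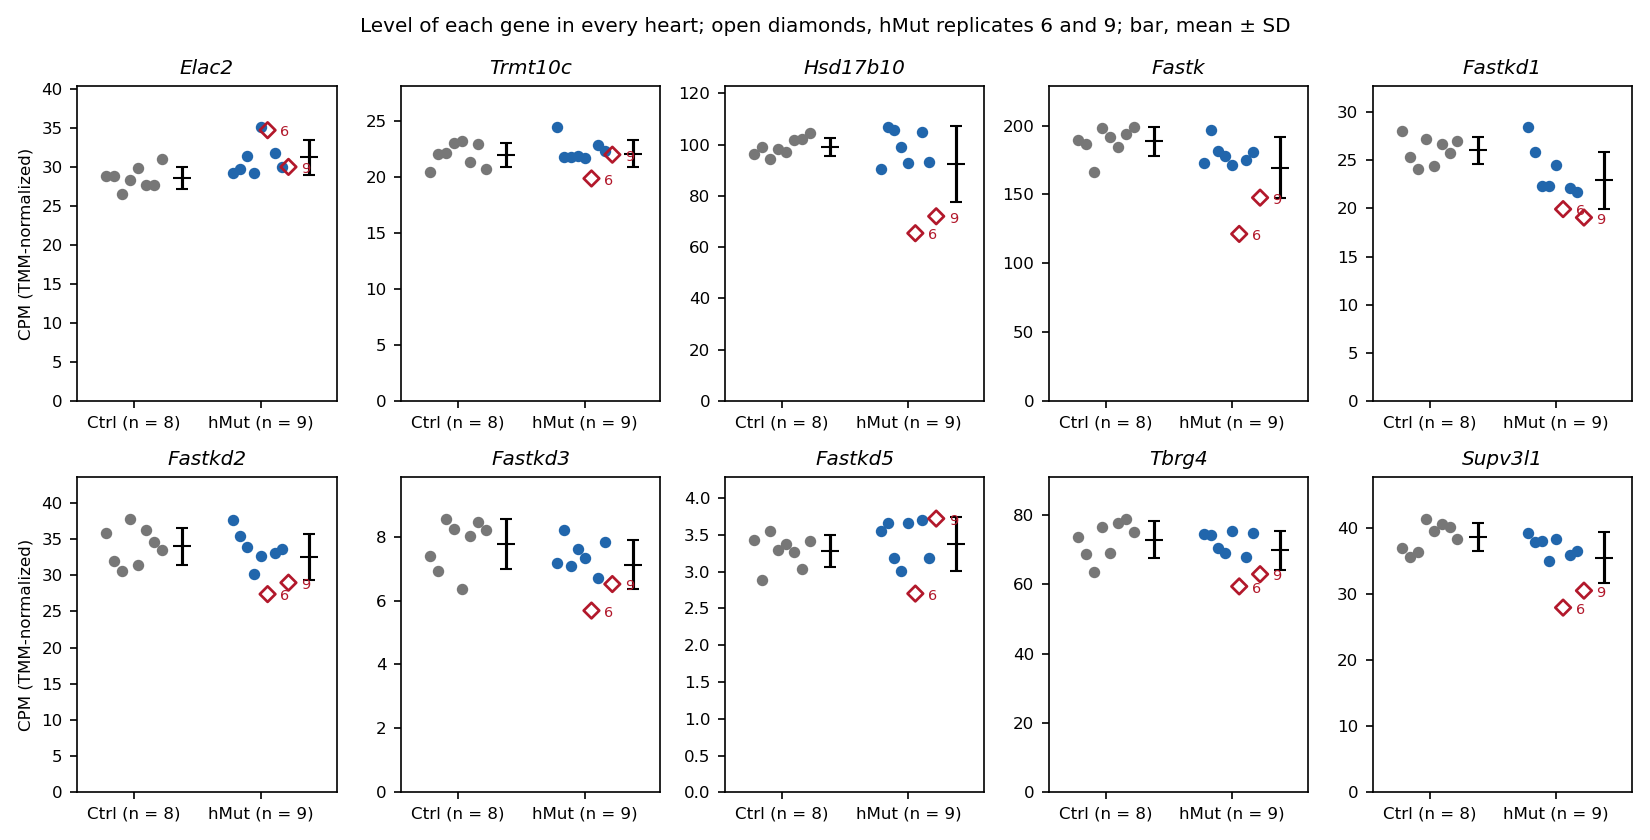
Level of each of the 10 genes in every heart, in TMM-normalized CPM on axes that start at 0, for 8 Ctrl hearts (grey) and 9 hMut hearts (blue, with replicates 6 and 9 as open red diamonds), and bars for mean ± SD. Groups overlapped for all 10 genes, and the hMut points far from the others were mostly replicates 6 and 9, such as *Hsd17b10* at 65.5 and 72.1 CPM against a Ctrl range of 94.2 to 105.

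Among the genes of tRNA-end processing, *Elac2* was the one whose hMut hearts lay higher. *Elac2* lies on the plus strand of chromosome 11 (chr11:64869864-64892895, GRCm39, as all gene positions here). Its level was 26.5 CPM in the lowest Ctrl heart, 28.5 at the median and 30.9 in the highest. The hMut hearts had 29.2, 29.98 and 35.1 CPM at the lowest, the median and the highest. All 9 hMut hearts lay above the Ctrl median and 4 lay above every Ctrl heart, with replicates 5 and 6 at the top. In hMut minus Ctrl this was a log2 fold change of 0.13 (SE 0.05, 95% interval 0.03 to 0.23), and its adjusted p of 0.108 in edgeR's test missed the threshold.

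*Trmt10c* encodes the methyltransferase subunit of mitochondrial RNase P (chr16:55852972-55858182, minus strand). Its 3 values of lowest, median and highest heart were 20.5, 22.1 and 23.2 CPM in Ctrl and 19.9, 21.9 and 24.5 CPM in hMut. The groups overlapped almost fully, with replicate 6 below and replicate 1 above all Ctrl hearts. The log2 fold change was 0.0056 (SE 0.04, 95% interval -0.08 to 0.10, adjusted p = 0.947 in edgeR's test), and its sign turned under 7 of 28 other settings.

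*Hsd17b10*, on the X chromosome (chrX:150784841-150787438, plus strand), encodes a dehydrogenase of isoleucine breakdown that is also the scaffold subunit of RNase P. In Ctrl it had a lowest level of 94.2 CPM, a median of 98.8 and a highest level of 105. In hMut the lowest heart had 65.5 CPM, the median was 93.4 and the highest was 107. The hMut hearts spread to both sides, with 5 below and 3 above every Ctrl heart, and the coefficient of variation was 16.0% in hMut and 3.49% in Ctrl. Its log2 fold change was -0.10 (SE 0.08, 95% interval -0.28 to 0.07, adjusted p = 0.431 in edgeR's test). It came to -0.00077 with hMut replicates 6 and 9 left out.

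*Prorp*, the nuclease of the same enzyme, and *Pnpt1*, the exonuclease partner of SUPV3L1, are not among the 10 genes and are named for these roles, after their values were seen. *Prorp* had a log2 fold change of -0.05 (SE 0.08, 95% interval -0.21 to 0.11) and *Pnpt1* one of -0.01 (SE 0.06, 95% interval -0.13 to 0.11), with adjusted p-values of 0.684 and 0.904 in edgeR's test. The genes that encode RNase P of mitochondria therefore gave intervals that all included 0.

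In the FASTK family, 0 of 6 genes passed the test, the median log2 fold change was -0.09, and the signs were negative for 5 genes and positive for *Fastkd5*. Scaling on cardiomyocyte markers turned 4 of these 5 signs, all but that of *Fastkd1*, and none relative to the shift of all genes. *Fastk* encodes the founding member, whose mitochondrial form takes part in the maturation of the mt-Nd6 mRNA (chr5:24643438-24650285, minus strand). Its levels were 166, 191 and 199 CPM in the lowest, median and highest Ctrl hearts, and 121, 175 and 197 CPM in those of hMut. The log2 fold change was -0.15 (SE 0.07, 95% interval -0.31 to -0.0014, adjusted p = 0.191 in edgeR's test). In hMut, 8 of 9 hearts lay below the Ctrl median, and only replicates 6 and 9 lay below all Ctrl hearts. The lower end of the Ctrl range was Ctrl replicate 3 alone, at 166 CPM, and the next Ctrl heart had 184 CPM. Of the hMut hearts, only replicate 2, at 197 CPM, lay above that next heart. Without hMut replicates 6 and 9 the log2 fold change was -0.07. *Fastk* overlaps *Slc4a2* over 2511 bases on the opposite strand, and since the strand setting of the counting is not given, reads from that stretch cannot be assigned with certainty. *Slc4a2* had a mean of 1280 counts per heart against 6714 for *Fastk*.

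*Fastkd1*, linked to the level of the mt-Nd3 mRNA, had the most negative log2 fold change of the 10 genes (chr2:69517159-69543860, minus strand). Ctrl hearts had 24.1, 26.2 and 28.01 CPM at the lowest, the median and the highest. The hMut hearts had 19.0 CPM in replicate 9, the lowest, a median of 22.3 and 28.4 CPM in replicate 1, the highest of all 17 hearts. Thus 6 of 9 hMut hearts lay below every Ctrl heart and 1 lay above. This gave a log2 fold change of -0.19 (SE 0.07, 95% interval -0.33 to -0.04, adjusted p = 0.108 in edgeR's test). Leaving out hMut replicate 1, the highest heart, could only lower this value, which came to -0.23 with an adjusted p of 0.0271 in edgeR's test. That fit called 1182 of 16121 tested genes, against 749 of 16195 with all hearts. In limma-voom with sample weights, which called 12.8% of all tested genes, *Fastkd1* had -0.17 with an adjusted p of 0.0421. The gene thus passed the threshold in both of these fits. With replicates 6 and 9 left out its log2 fold change was -0.13. In male hearts alone, a setting chosen after seeing the data, it was -0.25, and it passed in neither.

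*Fastkd2* encodes a protein needed for the large mitochondrial rRNA and its ribosome subunit (chr1:63769773-63793814, plus strand). Its level was 30.6, 34.0 and 37.8 CPM at the lowest, median and highest of the Ctrl hearts, and 27.4, 33.0 and 37.6 CPM in hMut. For *Fastkd2* the log2 fold change was -0.06 (SE 0.06, 95% interval -0.19 to 0.07, adjusted p = 0.523 in edgeR's test). The groups overlapped over most of their range, with hMut replicates 4, 6 and 9 below all Ctrl hearts. *Tbrg4*, also known as Fastkd4, encodes a protein that stabilizes several mitochondrial mRNAs (chr11:6565598-6576067, minus strand). Ctrl hearts had 63.5, 74.4 and 78.9 CPM and hMut hearts 59.4, 70.4 and 75.4 CPM, again as lowest, median and highest. The log2 fold change of *Tbrg4* was -0.06 (SE 0.05, 95% interval -0.18 to 0.05, adjusted p = 0.483 in edgeR's test), and only replicates 6 and 9 fell outside the Ctrl range. For both genes the log2 fold change was -0.01 without those hearts.

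*Fastkd3* and *Fastkd5* had the lowest levels of the family. *Fastkd3*, which acts on several mitochondrial mRNAs (chr13:68730353-68740457, plus strand), had 6.36, 8.10 and 8.56 CPM at the lowest, median and highest of Ctrl and 5.69, 7.17 and 8.20 CPM in hMut. Its log2 fold change was -0.12 (SE 0.08, 95% interval -0.29 to 0.04, adjusted p = 0.314 in edgeR's test). Only replicate 6 lay below the Ctrl range, while 8 of 9 hMut hearts lay below the Ctrl median. *Fastkd5*, whose protein is needed at junctions that hold no tRNA on the coding strand, such as the third and the fourth printed above (chr2:130455760-130471947, minus strand), had 2.88, 3.33 and 3.55 CPM in Ctrl and 2.70, 3.55 and 3.72 CPM in hMut. Its log2 fold change was 0.04 (SE 0.08, 95% interval -0.13 to 0.21, adjusted p = 0.779 in edgeR's test), with 4 hMut hearts above and 1 below all Ctrl hearts. The interval of *Fastkd5* lies within that of *Ubox5* on the same strand (mean of 125 counts per heart against 309), so its counts are uncertain.

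*Supv3l1*, the helicase gene (chr10:62264988-62285517, minus strand), had 35.7, 38.96 and 41.5 CPM at the lowest, median and highest of the Ctrl hearts. In hMut these were 27.98, 36.6 and 39.3 CPM. The log2 fold change was -0.12 (SE 0.06, 95% interval -0.25 to 0.01, adjusted p = 0.218 in edgeR's test). In hMut, 8 of 9 hearts lay below the Ctrl median, but the groups overlapped, with replicates 4, 6 and 9 below all Ctrl hearts, and without replicates 6 and 9 the value was -0.05.

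**Figure D2:**
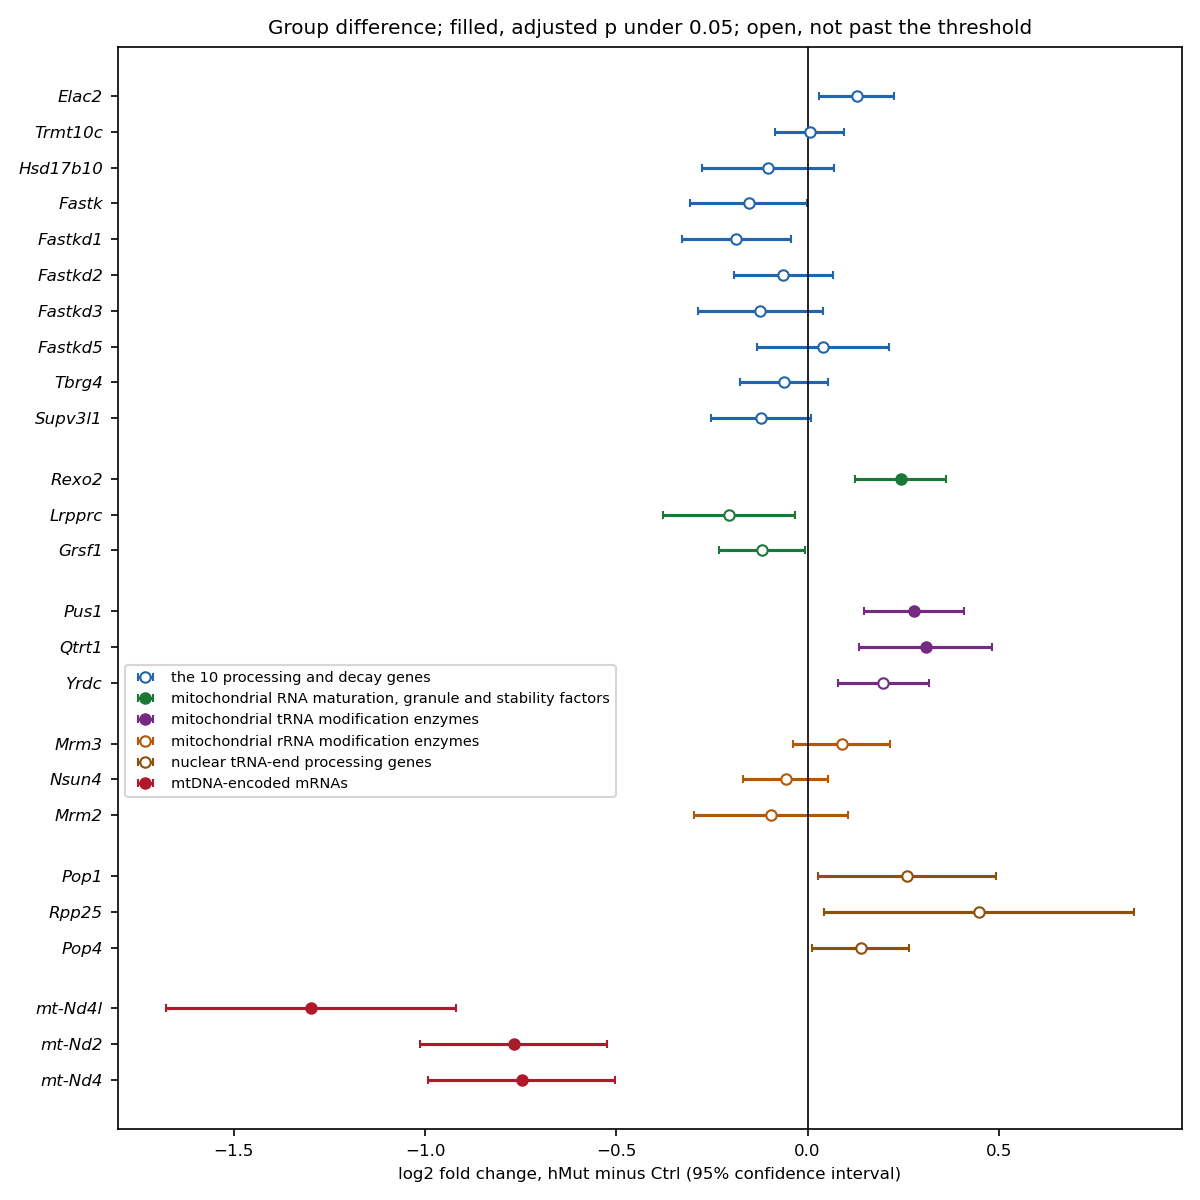
Log2 fold change (hMut minus Ctrl, x axis) with its 95% confidence interval for the 10 processing and decay genes and for the 3 genes with the smallest p of each related list. Filled points passed an adjusted p of 0.05 in edgeR's test. The 10 genes lie between -0.19 and 0.13, and the 3 mtDNA-encoded mRNAs shown lie between -1.298 and -0.75.

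Within the hMut group the deviations of the genes from the Ctrl mean were concentrated in replicates 6 and 9. Replicate 6 was the lowest of all 17 hearts for 8 of the 10 genes, where it was the lowest for 18.3% of all tested genes. It lay below all Ctrl hearts for 9 of the 10 (28.8% of all tested genes) and above them for *Elac2*, at 34.7 CPM. Replicate 9 lay below all Ctrl hearts for 6 genes (26.6% of all tested genes), which were *Hsd17b10*, *Fastk*, *Fastkd1*, *Fastkd2*, *Tbrg4* and *Supv3l1*, and above them for *Fastkd5*. The median deviation of the 10 genes on the log2 scale was -0.35 in replicate 6 and -0.24 in replicate 9, and stayed within -0.08 to 0.06 in the other 7 of that group and within -0.09 to 0.07 in Ctrl. The median over all tested genes was 0.0101 and 0.0194 in replicates 6 and 9.

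Cardiomyocyte marker sums were low and myeloid and fibroblast sums high in both of these hearts, whereas lymphoid, endothelial and mural sums did not set the pair apart. Besides the cardiomyocyte and myeloid sums given above, the 8 fibroblast markers, of which none passed the test, summed to 1857 and 1488 per 1000000 counts in replicates 6 and 9 against 943 to 1116 in Ctrl and 956 to 1857 in hMut. The 8 lymphoid markers, again with none past the threshold, summed to 40.8 in replicate 6 and 8.13 in replicate 9 against 1.81 to 45.05 in Ctrl and 3.62 to 40.8 in hMut. Of 8 endothelial markers 2 passed the test, both higher, and their sum in replicates 6 and 9 was 891 and 1101 against 784 to 1001 in Ctrl and 876 to 1186 in hMut. Of 6 mural cell markers 1 passed, also higher, with sums of 765 and 1114 in these hearts against 806 to 1076 in Ctrl and 765 to 1174 in hMut. No marker of the 6 lists was at 0 in every heart, and the part of cell composition in the values of the 10 genes was not tested.

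The spread of all 10 genes, as the coefficient of variation of CPM, was larger in hMut than in Ctrl, as it was for 68.2% of all tested genes. With replicates 6 and 9 left out it was larger in hMut for 4 of the 10 genes, against 48.7% of all tested genes. With these hearts out, 0 of the 10 genes passed the test, and *Elac2* (0.11) and *Fastkd1* (-0.13) had the log2 fold changes largest in size. Replicates 6 and 9 had the median deviations largest in size. Leaving them out therefore tends to narrow the spread in hMut and to draw the negative log2 fold changes toward 0. Such fits describe what these hearts contribute and are no separate check.

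**Figure D3:**
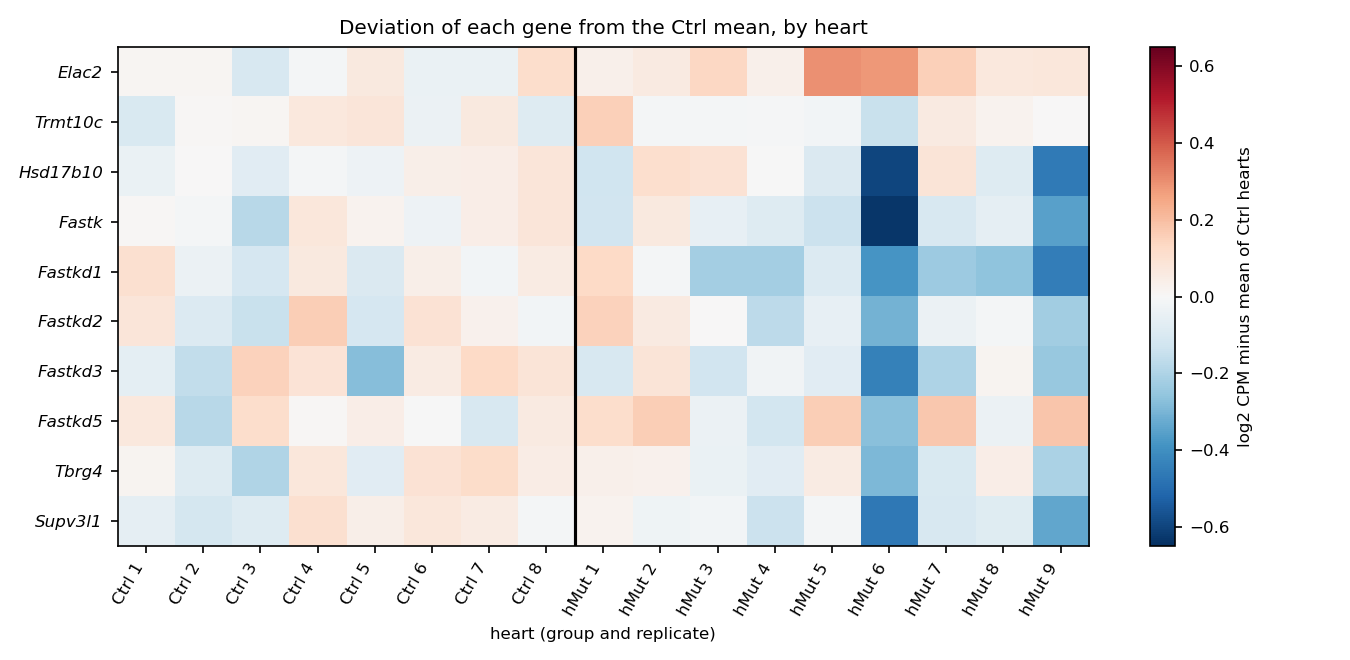
Deviation of each of the 10 genes (rows) from the mean of the Ctrl hearts, as log2 CPM, in each of the 8 Ctrl and 9 hMut hearts (columns), red for higher and blue for lower. The dark blue columns are hMut replicates 6 and 9, with median deviations of -0.35 and -0.24, while the row of *Elac2* is red in replicate 6.

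The libraries were also scaled so that the geometric mean of the cardiomyocyte marker counts was equal in every heart. This called 31.6% of all tested genes, 4994 higher and 119 lower, against 564 and 185 with TMM. Under this scaling *Elac2* had a log2 fold change of 0.31 (adjusted p = 0.00571) and *Trmt10c* one of 0.18 (adjusted p = 0.0337), the 2 of the 10 genes that passed. Relative to the shift of all genes, *Elac2* was at 0.13 and *Trmt10c* at 0.00056. The sign of a small log2 fold change thus depended on the scaling. The place of a gene relative to the median of all genes moved little, because a factor per library moves all genes nearly alike.

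**Figure D4:**
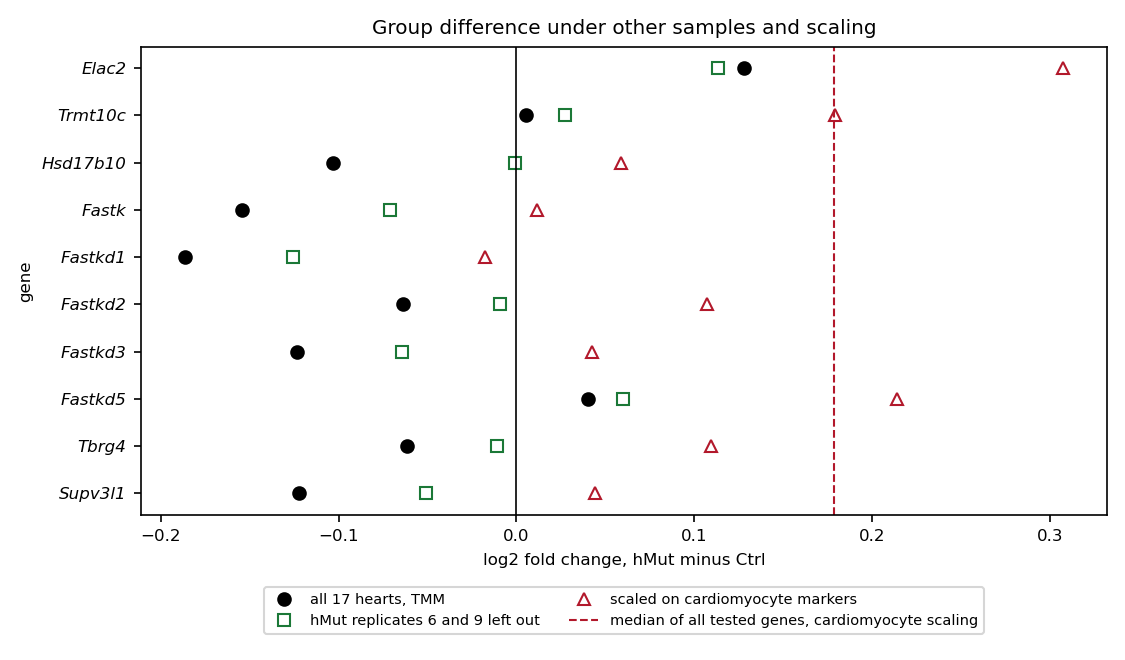
Log2 fold change of each of the 10 genes (hMut minus Ctrl) with all 17 hearts and TMM normalization (black), with hMut replicates 6 and 9 left out (green squares) and with scaling on cardiomyocyte markers (red triangles). The dashed line is the median of all tested genes under the last scaling, 0.18, which lies to the right of 7 of the 10 triangles and 0.00056 below that of *Trmt10c*, while without replicates 6 and 9 the genes lie between -0.13 and 0.11.

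The levels of the 10 genes relative to each other were compared within the 8 Ctrl hearts as CPM per kilobase of gene length. *Hsd17b10* had the highest level, with a median of 76.1 CPM per kilobase, followed by *Fastk* (43.6), *Tbrg4* (20.1) and *Supv3l1* (13.1). Then came *Elac2* (8.20), *Trmt10c* (7.36), *Fastkd2* (5.79) and *Fastkd1* (4.48), and *Fastkd3* (1.55) and *Fastkd5* (1.10) were lowest. The order was set by the medians of these 8 hearts, so no test is given on them, and each gene lay above the next in all 8. In the hMut hearts, which did not set it, each gene lay above the next in all 9 hearts for 8 of the 9 neighbouring pairs, and *Supv3l1* lay above *Elac2* in 8 of 9. *Elac2* and *Trmt10c* were closest, at a mean ratio of 1.12, and were the one neighbouring pair whose ranges over hearts overlapped. The FASTK family thus held both the second highest and the lowest level, of *Fastk* and *Fastkd5*, whose counts are uncertain where other genes overlap them. The subunits of RNase P differed as well, *Hsd17b10* being far above *Trmt10c*.

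**Figure D5:**
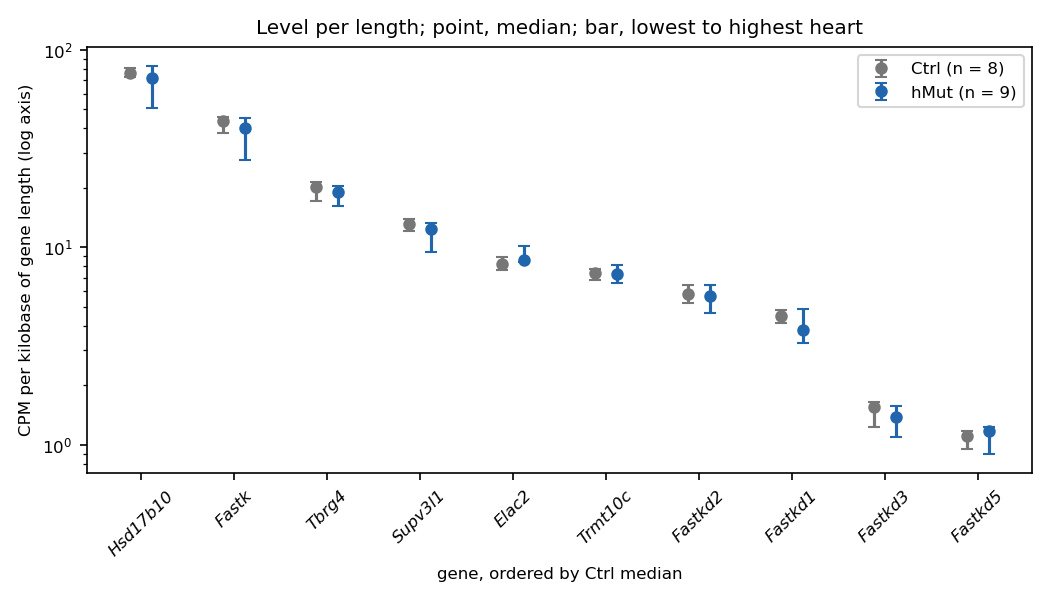
Level per length of the 10 genes, as CPM per kilobase of gene length on a log axis, for the 8 Ctrl (grey) and 9 hMut hearts (blue). Points are medians and bars run from the lowest to the highest heart. In Ctrl the medians fall from 76.1 for *Hsd17b10* to 1.10 for *Fastkd5*, whose counts are uncertain because it lies within *Ubox5*.

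The genes around these 10 in the same pathway were read from 5 lists in the same fit. Of 16 further factors of mitochondrial RNA maturation, granules and stability, 1 rose and 0 fell, near the share of 4.62% called among all tested genes, with a median log2 fold change of -0.02. It was *Rexo2*, which encodes an exonuclease that clears the short RNA pieces left by degradation, with 39.6, 41.1 and 45.03 CPM at the lowest, median and highest of Ctrl and 42.0, 48.5 and 56.7 CPM in hMut. *Rexo2* rose by 0.24 on the log2 scale (SE 0.06, adjusted p = 0.0210 in edgeR's test), and 7 of 9 hMut hearts lay above all Ctrl hearts. The call was lost under 2 of 28 other settings, of which 1 was male hearts only (adjusted p = 0.0999). *Lrpprc*, whose protein stabilizes mitochondrial mRNAs, had a log2 fold change of -0.21 (SE 0.08, adjusted p = 0.134 in edgeR's test). *Grsf1*, which encodes an RNA granule protein, had one of -0.12 (SE 0.05, adjusted p = 0.175), so that neither passed. With cardiomyocyte scaling the log2 fold change of *Grsf1* turned positive, to 0.05.

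Of 17 genes listed under mitochondrial tRNA modification, 2 rose and 0 fell, with a median log2 fold change of 0.01. Of all tested genes, 3.48% rose and 1.14% fell. Whether the enzymes of this list act on mitochondrial tRNAs alone was not tested. *Pus1*, which encodes a pseudouridine synthase, rose by 0.28 (SE 0.06, adjusted p = 0.0170 in edgeR's test), with 7 of 9 hMut hearts above all Ctrl hearts, and lost its call under 1 of 28 other settings. *Qtrt1*, which encodes the catalytic subunit of the enzyme that places queuosine in tRNA, rose by 0.31 (SE 0.08, adjusted p = 0.0404), with 6 hMut hearts above all Ctrl hearts, but its call was lost under 17 of 28 other settings. *Yrdc*, of the pathway of threonylcarbamoyl-adenosine in tRNA, had 0.20 (SE 0.06, adjusted p = 0.0529) and did not pass, but passed under 5 of 28 other settings, DESeq2 (adjusted p = 0.0238) and limma-voom (adjusted p = 0.0322) among them.

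None of 6 mitochondrial rRNA modification enzymes passed, with a median log2 fold change of -0.06 and with 0 genes at an unadjusted p under 0.05. In that list *Mrm3* had 0.09 (adjusted p = 0.347), *Nsun4* -0.06 (adjusted p = 0.501) and *Mrm2* -0.10 (adjusted p = 0.539), the negative signs of the last pair turning with cardiomyocyte scaling. The 12 genes listed under nuclear tRNA-end processing also had 0 past the threshold, 3 at an unadjusted p under 0.05 and a median of 0.01. *Pop1* had 0.26 (adjusted p = 0.155), *Rpp25* 0.45 (adjusted p = 0.157) and *Pop4* 0.14 (adjusted p = 0.159), all subunits of nuclear RNase P. DESeq2 and limma-voom also called 0 genes of either list.

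Of the 13 mRNAs encoded by mtDNA, which are the RNAs that the 10 proteins process, 9 fell and 0 rose, with a median log2 fold change of -0.65. *mt-Nd4l* fell by 1.298 (SE 0.18, adjusted p = 0.000396 in edgeR's test), *mt-Nd2* by 0.77 (SE 0.12, adjusted p = 0.000883) and *mt-Nd4* by 0.75 (SE 0.12, adjusted p = 0.00104), all mRNAs of complex I subunits. For *mt-Nd2*, upstream of the second junction printed above, all 9 hMut hearts (7800 to 16947 CPM) lay below all Ctrl hearts (18188 to 25590 CPM). The genes downstream of the other 3 junctions were chosen for that place after their values were seen. *mt-Cytb* fell by 0.72 (SE 0.14, adjusted p = 0.00743), whereas *mt-Co3* with -0.65 (SE 0.23, adjusted p = 0.0935) and *mt-Nd1* with -0.35 (SE 0.14, adjusted p = 0.138) did not pass. Poly(A) selection reads mtDNA-encoded RNA by the length of its tail as well as by its amount, and the part of tail length was not tested.

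Promoters of the 10 genes were compared as 300-base windows, 250 before to 50 after the gene start, from RefSeq on the older build GRCm38.p6, in which all 10 genes were matched among 32851 promoters. Their GC content was 37.0% (*Fastkd1*) to 70.7% (*Fastkd3*), against a median of 52.7% over all promoters. The letters CCGGAAG, the core of ETS-type sites, stood on either strand in 4 of the 10 (*Trmt10c*, *Fastk*, *Fastkd5* and *Tbrg4*) and in 8.86% of all promoters. The site of nuclear respiratory factor 1, searched as GCGC, any base, then TGCGC, stood in *Fastkd3* alone (4.6% of all promoters), where they occurred 3 times, and TGATGNAA, a composite site of ATF4, in *Fastkd2* alone (3.97%). A site of YY1, AAG followed by ATGGCGG, stood in none of the 10 (0.852% of all). No window of a motif overlapped that of another. The matches are printed with the motif in capitals, on the strand of the gene. Among the 10 genes only the ETS letters are shared by several promoters. For *Trmt10c*, *Fastkd3* and *Fastkd2* the motif is read on the opposite strand, and for *Tbrg4* and *Fastkd3* the first match is given.
Trmt10c, chr16:56037782-56037808, minus strand: tggtgccggaCTTCCGGcggccgcggc
Fastk, chr5:24445277-24445303, minus strand: tgcgcatttcCCGGAAGcggagggcgg
Fastkd5, chr2:130629999-130630025, minus strand: gggccgctggCCGGAAGtgggttgtgg
Tbrg4, chr11:6626156-6626182, minus strand: cttcccagtaCCGGAAGcctgagcgca
Fastkd3, chr13:68581992-68582021, plus strand: catccccactGCGCAGGCGCgagtcccggc
Fastkd2, chr1:63730495-63730522, plus strand: gcttctatctTTTCATCAgagaatagaa
The 4 genes with the ETS letters had log2 fold changes from -0.15 (*Fastk*) to 0.04 (*Fastkd5*), within the range of the other genes, -0.19 to 0.13. A match of letters is a description of the window and not a site shown to be bound.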

How the data were processed

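Polyadenylated RNA of 17 hearts was sequenced on a NovaSeq X Plus by the authors, with fastp for filtering, HISAT2 2.2.1 for alignment (GRCm39) and featureCounts 2.0.6 for counting. Raw counts without normalization were deposited, and whether counting used the strand is not given in the sources used here. The study's own test was DESeq2 1.42.0.

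Groups and replicate numbers were taken from the labels. Here, counts were tested in edgeR 4.0.16 (R 4.3.3) with TMM normalization, filterByExpr, the quasi-likelihood test with group as the only term, and Benjamini-Hochberg adjustment over 16195 genes at a threshold of 0.05. Standard errors were derived from each log2 fold change and its F statistic. Marker sums are per 1000000 counts of the library total over all genes multiplied by its TMM factor, and log2 CPM used a prior count of 2. The code was tested on simulated counts. Correlations of deviations between hearts with the same replicate number were -0.23 to 0.34, with 1 of 8 over 0.1. The labels name no pairing, and these correlations cannot show whether hearts of the same number shared a litter or a batch. No library was a copy of another (Spearman's rho across genes of 0.906 to 0.926 over 136 pairs). P-values measure the spread between hearts of 1 mouse each.

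The 10 genes and all lists were chosen with earlier results of these data known. Named genes are *Polg*, the 10 genes and, of each related list, the 3 with the smallest p, and exceptions are stated. Genes of a like pattern were to be named only for a gene past the threshold, and there was none. Alternatives were DESeq2 1.42.0, RLE and upper-quartile normalization, no filter on low counts, protein-coding genes without those of mtDNA, scaling on cardiomyocyte markers, sex or the replicate number as a term, limma-voom (limma 3.58.1) with sample weights, each heart left out, hMut replicates 6 and 9 left out and, added after seeing the data, male hearts only. Protein sequences were not used here. Other tools were Python 3.11.15, pandas 2.3.3, numpy 2.4.6, scipy 1.17.1 and matplotlib 3.10.9.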

Additional observations from a re-analysis of the deposited data

Results flagged for a closer look

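*Fastk* had 166.3 CPM in Ctrl replicate 3, which stood apart from the other Ctrl hearts (184 to 199 CPM). The overlap of the groups below 184 CPM rests on this heart. Its gap to the nearest heart was 0.548 of the range of the group, above the critical value of 0.526 for 8 samples in Dixon's test. This was 1 flag in 20 tests (the 10 genes in 2 groups), and chance flags about 5% of such groups. The log2 fold change of *Fastk* lay between -0.18 and -0.10 when each heart in turn was left out.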

How the results depend on the processing

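With each heart left out in turn, 395 to 1792 genes were called, against 749 with all hearts, of the 10 processing and decay genes 0 to 1 (*Fastkd1* without hMut replicate 1), and their median log2 fold change was -0.11 to -0.04. The lists gave 1 to 2 calls (maturation and stability), 1 to 5 (tRNA modification), 0 (rRNA modification), 0 to 1 (nuclear tRNA ends) and 7 to 10 (mtDNA-encoded mRNAs). Over all genes, the calls numbered 1517 with DESeq2, 2081 with limma-voom, 463 without a filter on low counts, 431 without hMut replicates 6 and 9, 5113 with cardiomyocyte scaling and 139 in male hearts only (added after seeing the data). Of the 10 genes, limma-voom called 1 (*Fastkd1*), with sample weights of 0.166 and 0.299 for hMut replicates 6 and 9, and cardiomyocyte scaling 2 (*Elac2* and *Trmt10c*). The other settings with all hearts, male hearts only and the fit without replicates 6 and 9 called 0.

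Cardiomyocyte scaling brought the median of the 10 genes to 0.083 and the calls to 6 (maturation and stability), 6 (tRNA modification), 1 (rRNA modification) and 5 (nuclear tRNA ends). It turned the signs of *Hsd17b10* (0.059), *Fastk* (0.012), *Fastkd2* (0.11), *Fastkd3* (0.043), *Tbrg4* (0.11), *Supv3l1* (0.044), *Grsf1* (0.050), *Nsun4* (0.11) and *Mrm2* (0.069). *Mrm2* was also at 0.012 without hMut replicates 6 and 9. *Trmt10c* turned to -0.0098 with upper-quartile normalization and to -0.00078 among protein-coding genes without those of mtDNA, and with each heart left out it lay between -0.014 and 0.024. The tRNA modification list had 1 call with upper-quartile normalization, 1 without a filter on low counts, 5 with limma-voom, 1 without replicates 6 and 9 and 1 in male hearts. In male hearts the maturation list had 0 calls and the mtDNA-encoded mRNAs 4. The cause of these moves was not tested, except that fewer hearts entered the last fits.

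The replicate number as a block left 195 calls over all genes, 0 among the 10 genes, 0 in the maturation list (*Rexo2*, adjusted p = 0.0975 in edgeR's test) and 0 in the tRNA modification list (*Pus1*, adjusted p = 0.0749, and *Qtrt1*, 0.158). By their labels these samples share only a number, and 1 of 8 pairs had a correlation over 0.1. Whether the numbers mark a pairing is not known. No detection limit was measured, and counting depth (102 to 165 counts per heart for *Fastkd5*) limits the genes of lowest level.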
